A study of Homo sapiens with 10 samples.

Results

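Acetylated H3K4me3 regions that carried MYC without MYCN were described in the human cell line RPMI-8402, grown from a T-cell acute lymphoblastic leukaemia and profiled by CUT&RUN. A region was selected by overlap alone. It came from the H3K4me3 list, on chromosomes 1 to 22 and X, and shared 1 bp or more with H3K27ac, with MYC of set C and with MYC of set D, and with no MYCN peak. Of 13852 H3K4me3 regions, 4515 met all of these conditions, which is 32.6% of all H3K4me3 regions and 49.2% of the 9176 with H3K27ac (95% interval 48.2 to 50.2%). The count rests on the list of set C: with MYC of set D alone 7161 acetylated regions (78%) would have qualified, and with MYC of set C alone 4832 (52.7%). Peak calls chose the members, so every statement below on MYC, MYCN, H3K27ac or H3K4me3 at them is a description without a test. H3K4me1 was the only list the choice did not use, but it was profiled in the same set as H3K27ac and the set C list of MYC.

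In CUT&RUN, an antibody tethers a nuclease to chromatin in permeabilised cells, and the DNA cut loose around the target is sequenced. The labels name no drug or genetic change, and every library came from this single line. The series held 10 libraries in 4 sets: MYCN with control IgG in set A, H3K4me3 with IgG in set B, MYC, H3K27ac and H3K4me1 with IgG in set C, and MYC with IgG in set D. Peak lists of 6 libraries were used, and the 4 IgG libraries were not analysed here. Each mark and MYCN therefore had 1 library, without a replicate. MYC had 2 lists, from different callers, and the headers of both give 1 signal track, so whether they are independent is not settled. The lists give positions on hg19 without read numbers, which leaves the depth of every library unknown. Intervals of shares are exact 95% Clopper-Pearson intervals that take in counting error alone. Regions are not replicates, and a p-value here is about the lists, with nothing known of the spread from culture to culture.

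MYC and MYCN are paralogous basic helix-loop-helix leucine zipper proteins that bind E-box DNA as dimers with MAX. MYC is known to occupy a large share of active promoters in cells that express it at high levels, and in T-cell leukaemia it acts downstream of NOTCH1. Trimethylation of H3K4 marks promoters in use or poised for use, acetylation of H3K27 marks active promoters and enhancers, and monomethylation of H3K4 is typical of enhancers and promoter flanks. No hg19 gene models were used. The regions are therefore given by position, and whether each lies at a transcription start was not tested.

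The selected regions were wide, and MYC covered their centre more often than their sides. Their H3K4me3 width ran from 180 to 9165 bp, with a median of 1818 bp and quartiles of 1273.5 and 2422.5 bp. The median was 1982.5 bp in the 644 acetylated regions with MYCN, 1482 bp in the 2646 with MYC of set D only and 903.5 bp in the 1054 without MYC. Regions with MYC in both lists thus stood next to those with MYCN in width, and the regions without MYC were the narrowest of these classes. Only 7.2% of the selected regions (325) were under 500 bp, against 34.7% of the acetylated regions without MYC. Of these 325, 139 had another H3K4me3 region within 1 kb, so some narrow ones were neighbours of a separate H3K4me3 call. So did 383 of the 1081 acetylated regions under 500 bp and 1533 of the 2965 such regions among all H3K4me3 regions. Close neighbours were thus not particular to the narrow selected regions. Wide regions overlap peaks more easily, and these medians do not take that into account.

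At the exact centre of the H3K4me3 region, 81.1% of the selected regions were covered by MYC of set C, 66.8% by H3K27ac and 54% by MYC of set D. At 500 bp to the left of the centre the shares were 61.8%, 42.3% and 33.8%, and at 500 bp to the right 60.4%, 39.7% and 32.2%. At 1000 bp to the left they had dropped to 24.7%, 13.3% and 7.97%, while 45.7% of the regions still held H3K4me3 there. All 3 lists thus covered the centre of the H3K4me3 region more often than its sides. H3K4me1, which the choice did not use, did so too, with 4.25% at the centre, 3.41% at 500 bp to the left and 3.26% to the right. Whether MYC was placed at the centre beyond what an overlap with the region gives was not tested. Acetylated regions without MYC had H3K27ac over the centre in 65.9% of cases, close to the 66.8% of the selected regions.

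**Figure D1:**
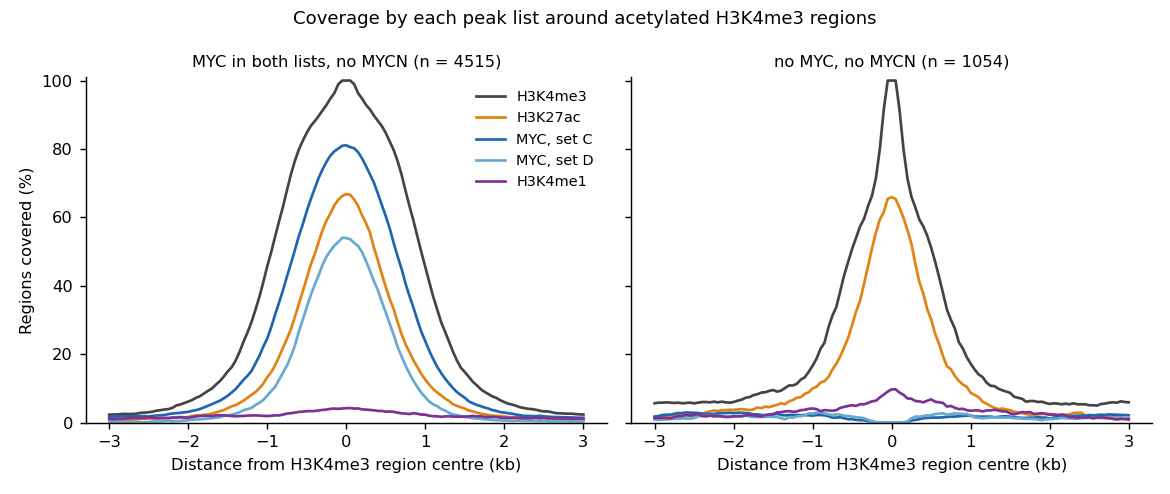
Share of regions covered by each peak list (vertical axis, percent) against the distance from the centre of the H3K4me3 region (horizontal axis, kb). The left panel holds the 4515 acetylated regions with MYC in both lists and no MYCN, and the right panel the 1054 without MYC. H3K27ac covers 66.8% of the centres on the left and 65.9% on the right, and H3K4me1 4.25% and 9.77%.

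H3K27ac was usually shorter than the H3K4me3 region that held it. It covered a median of 43.9% of the region (quartiles 28.7 and 61.1%), or 718 bp, and more than 50% of the bases in 39.8% of the selected regions (38.4 to 41.3%). Over all acetylated regions the median was 43.8% (quartiles 28 and 63.1%), and 40.4% had more than 50% of their bases covered. Partial coverage was thus not particular to the selected regions. In 70.3% of the selected regions (68.9 to 71.6%) the acetylation lay inside both edges, in 24% it ran past 1 edge, and in 5.71% past both. The acetylated regions without MYC had it inside both edges in 42.7% (39.7 to 45.7%) and past both in 17.5%, in narrower regions. Those with set D only, at 67.9% inside both edges (66.1 to 69.7%), and those with MYCN, at 79.5% (76.2 to 82.6%), lay on either side of the selected regions. The selected regions were met by 4592 H3K27ac regions with a median width of 801 bp, against 551 bp over the whole list. Most had a single H3K27ac region, and 4.08% had more than 1.

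MYC covered much of the region in the list of set C and a smaller stretch in that of set D. The bases covered by set C ran from 2 to 6398 bp with a median of 1020 bp, which was 61.8% of the region (quartiles 45.8 and 83.2%). Set D covered 4 to 2097 bp with a median of 589 bp, or 34.2% (24.5 and 47.5%). Set C covered more bases than set D in 90.8% of the selected regions (4101). MYC of set C lay inside both edges of the region in 43.6% (42.2 to 45.1%), ran past 1 edge in 41.4% and past both in 15%, and MYC of set D lay inside both edges in 74% (72.7 to 75.3%). Set C covered the whole region in 662 of them and set D in 163, and H3K27ac covered the whole region in 263. Set C was called by SEACR and set D by MACS2, so caller and library cannot be told apart in this difference. The acetylated regions with MYCN had a larger median stretch of set D, 779 bp, and a similar one of set C, 1007.5 bp, with zeros counted.

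**Figure D2:**
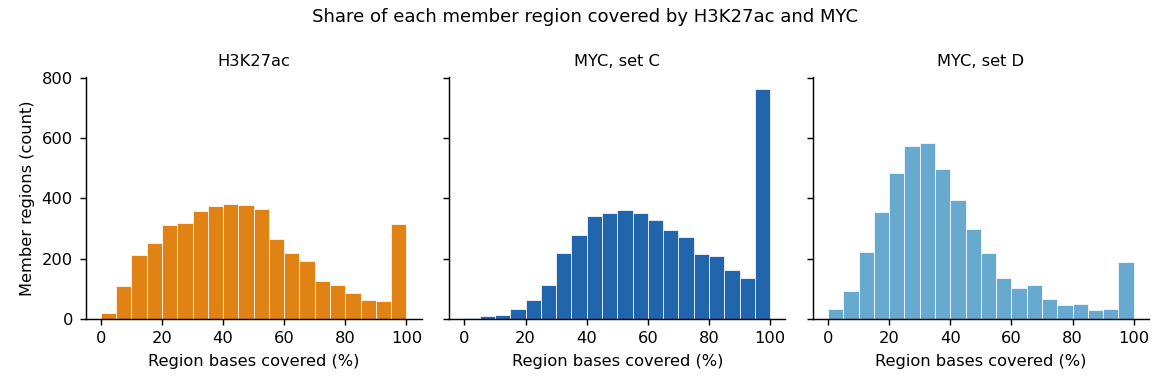
Number of selected regions (vertical axis) by the share of their bases covered by H3K27ac, MYC of set C and MYC of set D (horizontal axes, percent, in steps of 5). The medians are 43.9%, 61.8% and 34.2%, and the last bar of each panel includes the 263, 662 and 163 regions that were covered completely.

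The MYC lists mostly marked the same stretch within a selected region. An overlap with each list was required by the choice, and the headers of both lists give 1 signal track. Both lists covered the same 561 bp at the median (quartiles 387 and 750 bp). Only 27 of the 4515 regions (0.598%) had no base covered by both, and 107 (2.37%) had under 100 bp. Each region of the set C list names a short stretch inside itself, which in SEACR output is the place of the highest signal. The 4515 H3K4me3 regions met 4488 MYC regions of set C, of which 4480 give a stretch with a start and an end. Its middle lay within a set D peak in 91.8% (90.9 to 92.6%), within an H3K4me3 region in 92.6% and within H3K27ac in 73.4%. The distance from its middle to the nearest centre of a set D peak at these regions had a median of 114 bp (quartiles 55 and 211 bp), and 95.5% lay within 500 bp. Regions with MYC in both lists, no MYCN and no H3K27ac, also chosen by both MYC lists, were close in distance and in overlap with set D. Their median distance was 102 bp, and 90.1% of the stretches lay within a set D peak. Other values differed more. There, 80.4% of the stretches lay within an H3K4me3 region, and 8.95% of the regions had under 100 bp covered by both lists. Of the 4690 set D peaks at the selected regions, 76.4% had their centre in H3K27ac (75.1 to 77.6%), against 80.2% (77 to 83.2%) of the 678 at acetylated regions with MYCN and 75.9% (74.3 to 77.5%) of the 2699 at those with set D only. The remaining centres stood outside the called acetylation in each class. Across the 4515 regions the bases covered by set C and by set D had a Pearson correlation of 0.54 and a Spearman correlation of 0.57. Both lists share the H3K4me3 region as a frame, and region width correlated with the bases of set C at 0.68 and of set D at 0.52 (Spearman).

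**Figure D3:**
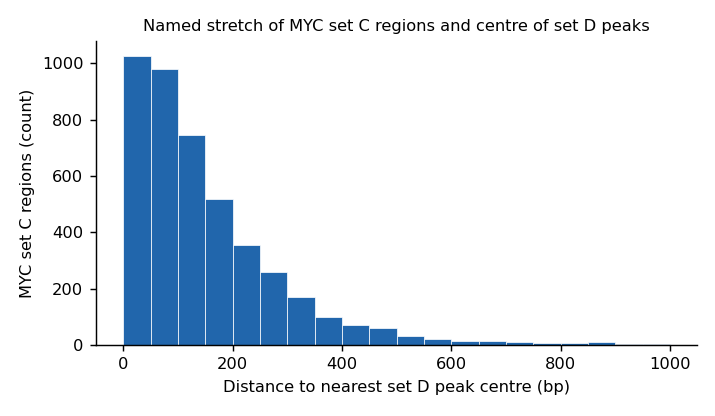
Number of MYC regions of set C at the selected H3K4me3 regions (vertical axis) by the distance from the middle of their named stretch to the nearest centre of a set D peak there (horizontal axis, bp, in steps of 50, shown to 1000). The median distance is 114 bp.

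Narrow and wide members differed in how fully they were occupied. In the narrowest quartile of the selected regions, 180 to 1272 bp, MYC of set C covered a median of 98% of the region, H3K27ac 67.2% and MYC of set D 54.4%. In the widest quartile, 2423 to 9165 bp, the same medians were 47.5%, 34.6% and 24.8%. In bases the order was the opposite, with medians of 581 bp of set C, 404 bp of H3K27ac and 367 bp of set D in the narrowest quartile and of 1419, 1071 and 770 bp in the widest. In medians, wider quartiles therefore held more MYC and acetylated bases but a smaller share of each. Covered bases were counted only inside the region, and each member had to meet H3K27ac and both MYC lists. Both directions thus follow at least in part from the measure and the choice. Single regions departed from these medians. The widest, of 9165 bp, had 566 bp of set D and 719 bp of H3K27ac, below the medians of its quartile. Another H3K4me3 region lay within 1 kb of 33.2% of the narrowest quartile, 12.4% and 9.3% of the middle quartiles and 15.4% of the widest. The fall with width was thus not steady. Over all acetylated regions the share was 17.2%, and over all H3K4me3 regions 25.2%.

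H3K4me1 was found in few of the selected regions. It overlapped 789 of 4515 (17.5%, 16.4 to 18.6%), against 14.4% of all H3K4me3 regions and 17.1% of the acetylated ones. Within 1 kb it was found at 27% (25.8 to 28.4%), against 25.2% of all H3K4me3 regions. It covered the centre of 4.25% (3.68 to 4.88%), against 4.3% of all H3K4me3 regions. The share inside the selected regions was thus close to that of all acetylated regions, and the share over the centre close to that of all H3K4me3 regions. By width it varied much more, with 26.7% of the narrowest quartile of the selected regions (24.2 to 29.4%), 22.3% and 11.9% of the middle quartiles and 9.03% of the widest (7.43 to 10.9%). A wide region offers more room for an overlap, yet the wide ones met H3K4me1 least. This was not particular to the selected regions. By width quartile of the acetylated regions, the share was 34.2% in the narrowest and 10.2% in the widest with MYCN. It was 25.8% and 7.35% with set D only, and 23.8% and 13% without MYC.

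H3K4me1 was compared with 4 other classes of H3K4me3 regions, with p-values adjusted over the 4 by the Benjamini-Hochberg method. It overlapped 17.5% of the selected regions and 12.5% of the 950 regions with MYC in both lists, no MYCN and no H3K27ac, or 4.95 points more (interval 2.45 to 7.21, two-sided exact test of Fisher, adjusted p = 0.000594). Within width deciles the difference was 9.11 points (Mantel-Haenszel chi-square test, adjusted p = 8.52e-10), but no difference was seen for H3K4me1 within 1 kb (-0.00944 points, Fisher's exact test, adjusted p = 1). The acetylated regions with MYC of set D only had H3K4me1 in 15.3%, which was 2.13 points below the selected ones (0.344 to 3.87, two-sided exact test of Fisher, adjusted p = 0.0395). Within chromosomes that difference was 0.626 points and did not pass (Mantel-Haenszel chi-square test, adjusted p = 0.685), while within width deciles of each chromosome it was 3.19 points (Mantel-Haenszel chi-square test, adjusted p = 0.00189). The acetylated regions with MYCN had it in 17.7%. That difference of -0.227 points had an interval of -3.54 to 2.75 and did not pass (two-sided exact test of Fisher, adjusted p = 0.868). H3K4me1 was profiled in set C, as were H3K27ac and MYC of set C. Classes without H3K27ac or without MYC of set C thus lack a list from the set of H3K4me1. In these comparisons the shared set cannot be told apart from acetylation or MYC.

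Against acetylated regions without MYC the sign and the call differed between settings. These had H3K4me1 in 19.8%, and the difference of -2.35 points did not pass (interval -5.09 to 0.207, two-sided exact test of Fisher, adjusted p = 0.0993). Over the centre of the region, H3K4me1 lay at 4.25% of the selected regions and 9.77% of those without MYC, a difference of -5.52 points (two-sided exact test of Fisher, adjusted p = 9.23e-11). Within 1 kb of the region the difference was -7.59 points (two-sided exact test of Fisher, adjusted p = 5.71e-06), and within chromosomes it was -3.92 points (Mantel-Haenszel chi-square test, adjusted p = 0.00508). Within width deciles the direction turned, to 5.16 points more in the selected regions (Mantel-Haenszel chi-square test, adjusted p = 0.0011), and within width deciles of each chromosome it was 2.51 points (Mantel-Haenszel chi-square test, adjusted p = 0.14). Between 1036 and 1602 bp, 24.3% of the selected regions held H3K4me1 (241 of 992), against 21.6% of those with MYCN (29 of 134), 16.6% of those without MYC (41 of 247) and 15% of those with set D only (127 of 849). This was the one width quartile in which the difference from regions without MYC passed (7.7 points, two-sided exact test of Fisher, adjusted p = 0.0144). In the widest quartile 9.24% of the selected regions held it, against 13% of those without MYC, a difference of -3.75 points (two-sided exact test of Fisher, adjusted p = 0.469).

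**Figure D4:**
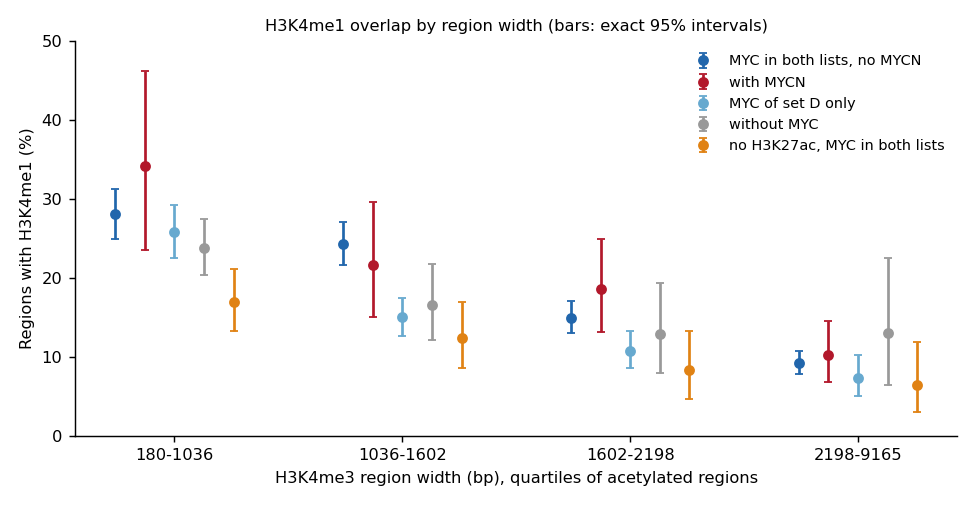
Share of regions that overlap H3K4me1 (vertical axis, percent) by H3K4me3 width in quartiles of the acetylated regions (horizontal axis, bp), for 5 classes of regions. Points are shares and bars exact 95% intervals. In all 5 classes the share was lower in the widest quartile than in the narrowest, and it was 9.24% in the widest for the selected regions.

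Where a selected region held H3K4me1, the mark lay over MYC and H3K27ac more often than over the rest of the region. The 789 regions met 811 H3K4me1 peaks with a median width of 284 bp, and a median of 228 bp fell inside. Of the H3K4me1 bases inside, 87.1% were also in MYC of set C, 75.7% in H3K27ac and 70.4% in MYC of set D. Over all bases of the same 789 regions these lists covered 63.7%, 47.1% and 37.9%. The centres of the H3K4me1 peaks fell in set C in 82.5%, in H3K27ac in 74.1% and in set D in 62.9% of cases. H3K4me1, H3K27ac and MYC of set C were profiled in the same set, and the pattern was not tested as particular to these regions. In acetylated regions with set D only, 65.7% of the H3K4me1 bases lay in set D against 35.7% of all bases, and in those without MYC 71.3% lay in H3K27ac against 49.6%. H3K4me1 lay inside both edges in 56.1% of the 789 (52.6 to 59.6%), past 1 edge in 39.8% and past both in 4.06%. The 789 were narrower than the other 3726, with medians of 1465 and 1912 bp, and had another H3K4me3 region within 1 kb less often, in 11.7% against 18.8%.

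The share of acetylated regions that qualified differed from chromosome to chromosome. It was highest on chromosome 4 (59.1%, 53.9 to 64.1%, 221 of 374), chromosome 19 (57.1%, 53.2 to 60.9%, 375 of 657) and chromosome 11 (56.1%, 51.6 to 60.5%). The lowest shares were on chromosome 13 (27.3%, 20.1 to 35.5%, 38 of 139), chromosome 15 (31.9%, 26.3 to 37.8%, 86 of 270) and chromosome 22 (35.8%, 29 to 43%). Set C moved with it, since MYC of set C was met by 69.8% of the acetylated regions of chromosome 4, 38.9% of chromosome 15 and 33.8% of chromosome 13. Set D varied less, with 88.5% on chromosome 4, 84.8% on chromosome 15 and 81.3% on chromosome 13, and lay between 77.5% on chromosome X and 90.1% on chromosome 20. Over the 23 chromosomes the share of members had a Spearman correlation of 0.97 with the share of set C, which is part of the selection, 0.68 with that of H3K4me1, 0.59 with that of set D and 0.31 with that of MYCN. The whole set C list was short on the same chromosomes, with 73 regions for 257 set D peaks on chromosome 13 (0.284) and 506 for 761 on chromosome 4 (0.665). Copy number, GC content and depth were not measured here, and their part in this was not tested.

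H3K4me1 at the selected regions also varied by chromosome. It was met by 28.8% of those on chromosome 19 (24.3 to 33.7%, 108 of 375), 25.2% on chromosome 17 and 24% on chromosome 20. It was met by 1 of 38 on chromosome 13 (2.63%, 0.0666 to 13.8%) and 2 of 50 on chromosome 18 (4%, 0.488 to 13.7%). Next came chromosome 15, with 5 of 86 (5.81%, 1.91 to 13%), and chromosome X, with 7 of 115 (6.09%, 2.48 to 12.1%). The whole list held 1.28 H3K4me1 regions for each H3K4me3 region on chromosome 19, the lowest ratio, beside 3.15 on chromosome 17 and 4.82, the highest, on chromosome 20. The ratio was 1.47 on chromosome 13, 3.02 on chromosome 18, 3.03 on chromosome 15 and 1.69 on chromosome X. Chromosomes 13 and X were thus low and chromosome 20 high in both measures, while chromosome 19 was low in the whole list and highest at the selected regions. Chromosomes 15 and 18 were low at the selected regions but not in the whole list. The selected regions of chromosome 19 were also the narrowest, with a median of 1443 bp against 2178 bp on chromosome 18. Those of chromosome X, low in H3K4me1, were the next narrowest, with a median of 1594 bp.

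**Figure D5:**
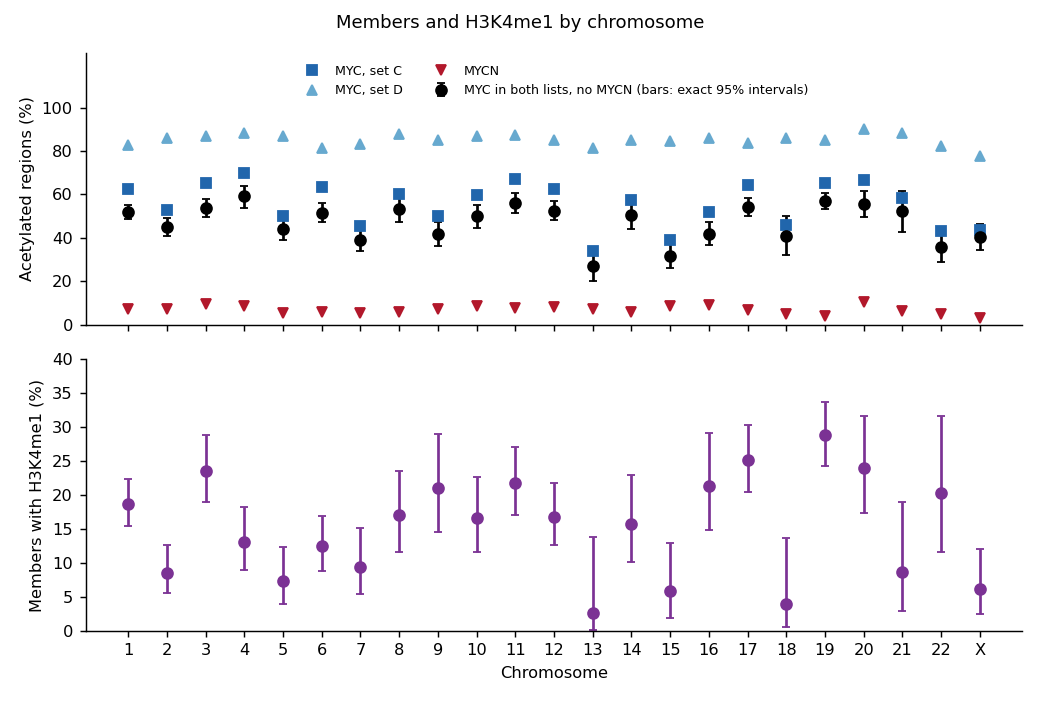
Upper panel, share of acetylated H3K4me3 regions (vertical axis, percent) that were selected, with exact 95% intervals, and that overlap MYC of set C, MYC of set D and MYCN, by chromosome. Lower panel, share of the selected regions that overlap H3K4me1, with exact 95% intervals; chromosome 19 has 28.8% and chromosome 13 2.63%.

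Selected regions followed each other without another acetylated region in between over some long stretches. The longest such run held 16 regions over 408871 bp on chromosome 12 (hg19, chr12:56434788-56843658). Runs of 13 lay at chr11:62472966-62650610, over 177645 bp, and at chr19:8007866-9435679, over 1427814 bp. Runs of 12 lay at chr1:11072067-11995192 and chr6:35995280-37190774. The selected regions were 49.2% of all acetylated regions, and 52.5% of those on chromosome 12, 56.1% on chromosome 11 and 57.1% on chromosome 19. Whether the runs were longer than such shares alone would give was not tested. Neighbours shared few peaks, since 218 of the 4515 regions shared an H3K27ac region with another selected region, 265 a MYC region of set C and 215 a set D peak.

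In the 10 widest selected regions, the bases that both MYC lists covered made up 1.31 to 19.4% of the region, while set C alone covered 989 to 4448 bp. The widest, chr7:92459776-92468940 (9165 bp), had 3458 bp of MYC of set C, 566 bp of set D and 719 bp of H3K27ac. Next were chr12:46118680-46126424 (7745 bp), with 2842 bp of set C, 1153 bp of set D and 2886 bp of H3K27ac, and chr21:36255344-36262987 (7644 bp), with 2716, 1330 and 610 bp. In these, most of the H3K4me3 domain lay outside the bases that both MYC lists covered, which were 6.18%, 13.2% and 17.4% of it. The region chr10:89621349-89628690 (7342 bp) had 1427 bp of MYC in both lists and was the only one of the 10 with H3K4me1, over 442 bp. The smallest share was at chr11:65265261-65272049 (6789 bp), where both lists covered 89 bp, or 1.31%. The others were chr19:13260105-13266843, chr4:109083821-109090550, chr12:122237335-122243930, chr16:54959976-54966463 and chr7:5463750-5470163. Both lists covered 19.2%, 3.11%, 4.47%, 18.6% and 3.2% of them, in that order, and set C alone 4273, 4448, 989, 2667 and 2446 bp.

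The 10 regions with the most bases in both MYC lists were other regions, and none was among the 10 widest. At chr4:129730394-129734510 (4117 bp) both lists covered 2097 bp, or 50.9%, with 1731 bp of H3K27ac. At chr4:141071587-141075836 (4250 bp) they covered 1798 bp, or 42.3%. At chr22:31741677-31743953 (2277 bp) they covered 1741 bp, or 76.5%, the largest share of the 10, and set C covered the whole region. Acetylation was short at chr5:175962224-175965344, with 474 bp of H3K27ac beside 1678 bp of MYC, and at chr17:2302410-2305838, with 434 bp beside 1634 bp. The others were chr7:139024451-139027133, chr1:46049006-46051445, chr6:20400876-20405236, chr5:43017032-43020972 and chr9:134268703-134271045, with 1625, 1595, 1591, 1558 and 1557 bp in both lists. Only the first of these 5 held H3K4me1, over 205 bp. None of the 10 had MYCN nearby, and the closest MYCN peak lay 32320 bp from the region on chromosome 1.

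The gap to the nearest MYCN peak had a median of 636425 bp in the selected regions. It was 658142 bp in the acetylated regions without MYC and 728758 bp in those with set D only. Each of these classes was chosen to hold no MYCN. Over all H3K4me3 regions, with those holding MYCN counted, the median was 599279 bp. Of the selected regions, 20 (0.443%) had a MYCN peak within 1 kb. The share was 0.38% in the acetylated regions without MYC, 0.189% in those with set D only and 2.52% in those with set C only. Over all H3K4me3 regions, with those holding MYCN counted, it was 5.62%. The closest selected regions were chr3:190231715-190232257, with a gap of 5 bp, chr6:33589127-33589954 with 10 bp and chr10:16859729-16860190 with 11 bp.

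Few regions lay near the edge of the choice by MYC overlap on the inside, or by the gap to set D on the outside. Just inside were chr19:5718597-5720143, with 2 bp of set C and 20 bp of set D, chr2:677529-678229, with 341 and 4 bp, and chr19:50144929-50145113, with 185 and 5 bp. Just outside, among acetylated regions without a set D peak, were chr7:2671595-2673143, 1 bp from one, chr15:74890816-74891413 at 6 bp and chr1:154325296-154325711 at 7 bp. In all, 5 selected regions had 10 bp or less of one of the MYC lists, and 4 acetylated regions without set D lay within 10 bp of a set D peak. Regions that just missed set C or H3K27ac, or barely held MYCN, were not counted.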

How the data were processed

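The authors deposited peak lists whose values are positions in bases, without a score or count. The build is hg19, per the submitters' processing notes. The submitters' processing notes name MACS2 and SEACR, without versions. MYCN peaks are those at q under 0.01 from cutruntools, H3K4me3 peaks are from MACS2, the list of MYC in set C is stringent SEACR output from paired reads, and that in set D is MACS2 output without pairing, per the file headers. The lists of H3K27ac and H3K4me1 have no header, and the aligner is not given in the sources used here. In the labels, the control entry of the set D MYC library is that library.

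Only chromosomes 1 to 22 and X were kept, and overlaps of 1 bp or more were counted. Overlap counts were the same as those of bedtools 2.31.1 for 30 of 30 ordered pairs of lists, and the code was tested on simulated data. Shares of H3K4me1 were compared by Fisher's exact test, two-sided, adjusted over 4 comparisons, and, within width deciles or chromosomes, by the Mantel-Haenszel chi-square test. Adjusted p-values under 0.05 passed. In 16 MYC regions of set C the named stretch has no end, and these were left out of distances. Python 3.11.15, numpy 2.4.6, scipy 1.17.1, statsmodels 0.14.6 and matplotlib 3.10.9 were used.

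The members, lists and comparisons were chosen with earlier results of these data known. Regions named in the text are the 10 widest, the 10 with most bases in both MYC lists, and the 3 just inside and just outside the selection; the runs and the regions nearest to MYCN were chosen after their values were seen. Alternatives were a larger overlap, peak centres, either MYC list alone, wider regions, a distance to MYCN, width quartiles and an H3K4me1 flank. The comparisons with regions of set D only and without H3K27ac, H3K4me1 over the centre, and the tests within deciles and chromosomes were added after the data were examined. The planned gene lists, distances to transcription starts and E-boxes need an hg19 annotation or genome and were not run. Sequences are not printed for the same reason.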

Additional observations from a re-analysis of the deposited data

How the results depend on the processing

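The selected share of acetylated regions was 49.2%. It was 47.1% with peak centres in place of 1 shared base, 51.8% among regions of 500 bp or wider, and between 52.7% with MYC of set C alone and 78% with MYC of set D alone. Overlaps of 100 bp and a distance of 1 kb to MYCN gave 48.9% and 49%. No paired analysis was possible because the labels give no replicate numbers (libraries were numbered here only to name them) and each mark but MYC has 1 library.

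The H3K4me1 differences, in points, depended on width, chromosome and the place of the overlap. Against regions with MYCN no setting passed the test, and the difference of -0.227 turned positive with peak centres (0.592), in width quartile 2 (2.65), within 1 kb (1.42) and over the region centre (0.836). With 1 MYC list it was -0.359 with set C alone and -1.01 with set D alone. Against regions without MYC the difference of -2.35 turned positive with peak centres (0.0494), among regions of 500 bp or wider (1.35), in width quartiles 1 to 3 (4.22, 7.7 and 2, of which the second passed), within width deciles (5.16) and within width deciles of each chromosome (2.51). It passed the test as negative within 1 kb (-7.59), over the centre (-5.52) and within chromosomes (-3.92). With set C alone it was 0.721 and with set D alone -2.13, neither passing.

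Against regions with set D only the difference of 2.13 no longer passed in width quartiles 1 and 4 (2.31 and 1.89), over the centre (0.322) and within chromosomes (0.626); it has no value with 1 MYC list. Against regions without H3K27ac the difference of 4.95 no longer passed with peak centres (1.24), in width quartile 4 (2.76) or over the centre (0.358), and was -0.00944 within 1 kb. It was 5.95 with set C alone and 5.35 with set D alone. Beyond width and chromosome, which were set as strata, the cause was not tested. Depth is unknown, so a peak absent from a list may lie below its threshold.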
